A study of Mus musculus with 10 samples.

Results

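The genes described here were 10 regulators and markers of mitosis: the kinases Plk1, Aurka, Aurkb, Bub1 and Ttk, the checkpoint proteins Bub1b, Mad2l1 and Cdc20, the passenger protein Birc5 and the proliferation antigen Mki67. They were chosen by name as genes of mitosis, with earlier results of these data known. All 10 of them, among 54838 genes listed, were matched by symbol and were among the 14719 genes with enough counts to be tested. Their RNA was measured by bulk RNA-seq of polyadenylated RNA from intestinal crypts of 5 WT mice and 5 Arid3a cKO mice, 1 library per animal. The cKO mice carried VillinCre-ERT2 and Arid3a fl/fl, so that tamoxifen deletes Arid3a, which encodes an AT-rich DNA-binding protein, in the epithelium of the intestine. Mice of both genotypes had received tamoxifen on 3 consecutive days and were sampled 1 month after the first injection. The Villin promoter drives the Cre in the whole intestinal epithelium and not in stroma or blood cells, which keep Arid3a. The labels describe the control mice only as WT, and whether they carried the Cre or the floxed allele, their strain and their age were not given in the sources used here. Animal identifiers came from a different series in each genotype, so whatever the series stands for cannot be told apart from genotype. Within a genotype, cKO replicates 1 and 2, cKO replicates 4 and 5, WT replicates 2 and 3, and WT replicates 4 and 5 had identifiers that differed only in their last letter, and the labels do not say what the shared part stands for.

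Crypts of the small intestine hold the stem cells and the transit-amplifying progenitors, and nearly all divisions of the epithelium take place there, while villus cells have left the cell cycle. Transcripts of mitotic regulators build up in the G2 and M phases and are low in quiescent cells, so in bulk tissue they follow the share of cells that are dividing. At the start of mitosis, PLK1 and AURKA drive centrosome maturation and spindle assembly, and AURKB, held with survivin (Birc5) in the chromosomal passenger complex, corrects faulty attachments of chromosomes to the spindle. TTK (MPS1), BUB1 and BUBR1 (Bub1b) then act at kinetochores that are not yet attached, where MAD2 (Mad2l1) and BUBR1 are assembled into an inhibitor of CDC20, the activator of the anaphase-promoting complex. Ki-67 (Mki67) coats mitotic chromosomes and is the usual marker of cycling cells.

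Genes of this class are known to share the cell cycle genes homology region, TTTGAA or TTCGAA, bound by MuvB complexes (DREAM, MYBL2-MuvB and FOXM1), which is often found close to CCAAT boxes, the site of NF-Y. Promoter windows from RefSeq (GRCm38.p6), reaching from 250 bases before to 50 bases after a gene's start, were held for 9 of the 10 genes, all but Aurkb. Both strands were searched for TTTGAA (reverse TTCAAA), for TTCGAA, which reads the same on both strands, and for CCAAT (reverse ATTGG). None of these can be counted as another at the same bases. TTTGAA was present in 6 of the 9 windows and in 17.9% of all 32851 windows, and TTCGAA in 2 of the 9 and in 1.56% of all. CCAAT was present in 7 of the 9 windows and in 37.4% of all. CCAAT together with TTTGAA or TTCGAA was found in 7 of the 9 windows, those of Plk1, Aurka, Bub1, Bub1b, Ttk, Cdc20 and Mki67, and in 7.52% of all. The windows of Mad2l1 and Birc5 held none of the 3 motifs. For Mad2l1 the bases before the RefSeq start end at chr6:66535220, while the gene position given below starts at 66535390. Its window thus ended before that position, and the bases just before it were not searched. A match is a string of letters and was not tested for binding in these crypts. The 150 bases before the start of 5 of the genes are shown 5′ to 3′ on the strand of the gene, with matches in capitals. Cdc20 and Mki67 carry both TTTGAA and CCAAT within these 150 bases, Bub1 and Bub1b are the related checkpoint pair whose ratio is compared below, and Plk1 is a kinase that passed the test.
Plk1, chr7:122159285-122159434 (+): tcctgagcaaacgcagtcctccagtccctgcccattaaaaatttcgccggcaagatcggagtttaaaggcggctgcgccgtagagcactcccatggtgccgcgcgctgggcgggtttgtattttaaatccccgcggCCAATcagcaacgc
Bub1, chr2:127831860-127832009 (−): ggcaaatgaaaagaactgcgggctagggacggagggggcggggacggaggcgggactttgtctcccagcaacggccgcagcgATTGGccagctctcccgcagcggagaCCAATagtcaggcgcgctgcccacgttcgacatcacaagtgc
Bub1b, chr2:118598061-118598210 (+): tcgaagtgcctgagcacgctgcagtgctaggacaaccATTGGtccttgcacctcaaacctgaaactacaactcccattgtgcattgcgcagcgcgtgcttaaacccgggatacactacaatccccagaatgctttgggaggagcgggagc
Cdc20, chr4:118437344-118437493 (−): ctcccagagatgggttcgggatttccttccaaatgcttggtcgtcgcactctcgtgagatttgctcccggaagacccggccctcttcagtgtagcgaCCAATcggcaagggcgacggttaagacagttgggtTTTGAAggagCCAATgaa
Mki67, chr7:135716380-135716529 (−): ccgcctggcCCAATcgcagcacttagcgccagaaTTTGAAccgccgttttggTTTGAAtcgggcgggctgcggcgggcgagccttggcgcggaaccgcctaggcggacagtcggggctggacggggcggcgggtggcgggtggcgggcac

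In Cdc20, TTTGAA began 18 bases before the start, between CCAAT matches that began 53 and 8 bases before it. In Mki67, TTTGAA began 116 and 98 bases before the start, downstream of a CCAAT match at 141. The matches of Plk1, Aurka and Ttk to TTTGAA, and that of Bub1 to TTCGAA, lay within the 50 bases after the start. Bub1b held TTTGAA after the start and TTCGAA 188 bases before it. Of the 7 genes with both kinds of match, Plk1 and Bub1b passed the test between genotypes and the other 5 did not, while 12.7% of all genes tested were called lower in cKO crypts. Mad2l1 and Birc5, whose windows held no match, did not pass, and Aurkb, for which no window was held, passed. A link between the motifs and the difference between genotypes was not tested.

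Libraries held 27050500 to 28152700 expected counts in WT and 28314100 to 31053600 in cKO animals, to 6 significant digits. Arid3a itself, given in CPM, counts scaled to the normalized size of each library, was at 1.91, 2.06, 2.75, 2.68 and 2.69 CPM in WT replicates 1 to 5 and at 0.303, 0.516, 0.489, 0.883 and 1.17 CPM in cKO replicates 1 to 5. It was lower in every cKO animal (log2 fold change -1.84 ± 0.32 SE, adjusted p = 0.00204 by the quasi-likelihood test of edgeR, Benjamini-Hochberg over all genes tested), and what remained was highest in cKO replicates 4 and 5. The tissue held its defining markers: all 4 epithelial markers (summed level 4274 to 5686 CPM, with 1 higher in cKO, Vil1) and all 4 of crypt base stem cells (3526 to 7473 CPM, with 3 lower in cKO) were detected. Of 9 villus enterocyte markers, 7 were higher in cKO animals and 0 lower (median log2 fold change 1.80), and their sum ranged from 934 to 4693 CPM in WT and from 6064 to 11365 CPM in cKO crypts. Of 12 immune markers, 2 were lower and 0 higher, with sums of 94.8 to 179 CPM in WT and 50.03 to 117 CPM in cKO crypts. Of 8 markers of stroma and endothelium, 2 were lower and 0 higher, with sums of 23.4 to 74.2 CPM and 16.0 to 134 CPM. No marker of these lists was at 0 in all libraries.

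The comparison of genotypes asked whether mitotic transcripts differ in crypts without Arid3a. Aurkb, Bub1b and Plk1 fell in cKO crypts, to between 76.1% and 78.7% of their mean WT level. None of the other 7 genes passed the test, and their levels in cKO crypts were 81.2% (Cdc20) to 92.4% (Bub1) of WT. All 10 log2 fold changes were below 0, with a median of -0.23 and a range of -0.39 to -0.11, while 54.1% of all tested genes were below 0 and their median was -0.03. In bulk RNA, fewer dividing cells, a larger part of non-dividing cells such as villus enterocytes, and less RNA per dividing cell cannot be told apart. Villus marker sums were 934 to 4693 CPM in WT and 6064 to 11365 CPM in cKO animals, and their part in these differences was not tested. Of all genes tested, 12.7% were called lower in cKO crypts, against 3 of these 10, and 0 of the 10 were called higher. In 7.62% of all genes every cKO animal lay below every WT animal, and of the 10 this held for Aurkb alone. A log2 fold change of -1 means a fall to 50% of the WT level, and each is given here with its 95% interval from the fit over all genes.

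**Figure D1:**
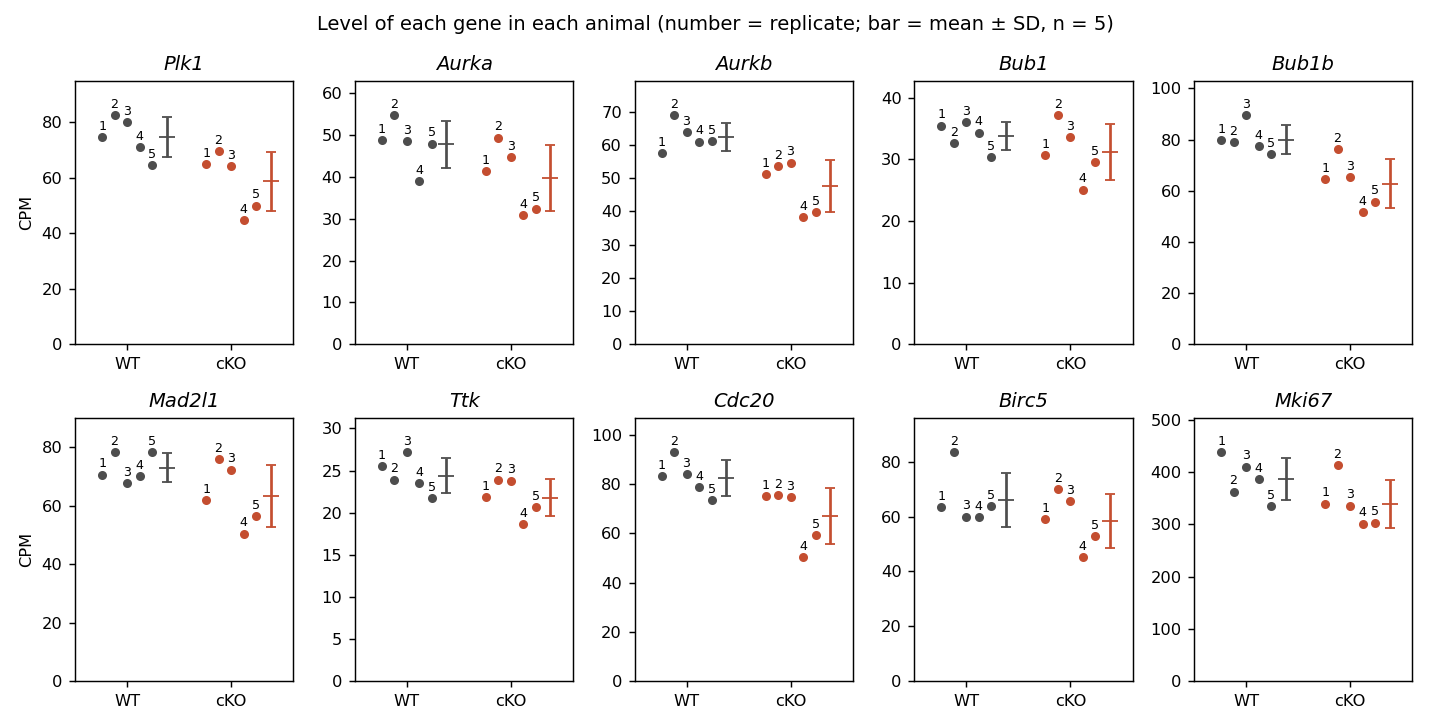
Level of each of the 10 genes in CPM (linear axis from 0) in each WT (grey) and cKO (red) animal, numbered by replicate, with the mean ± SD of 5 animals beside the points. cKO replicates 4 and 5 are the lowest cKO animals in all 10 panels, and Aurkb is the gene whose groups do not overlap.

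Plk1, the Polo-like kinase that drives mitotic entry and centrosome maturation (ENSMUSG00000030867, chr7:122159439-122169873, + strand, GRCm38, 10 exon blocks), was at 74.6, 82.5, 80.2, 71.2 and 64.5 CPM in WT replicates 1 to 5 and at 65.0, 69.7, 64.3, 44.7 and 50.03 CPM in cKO replicates 1 to 5. The groups met at the edge, since cKO replicates 1 and 2 lay above WT replicate 5, and cKO replicates 4 and 5 stood well below the rest. The mean fell from 74.6 ± 7.22 CPM to 58.7 ± 10.8 CPM (SD, n = 5), a log2 fold change of -0.34 (-0.60 to -0.08, adjusted p = 0.0485 by edgeR). That call sat next to the threshold: it was kept when WT replicate 5 or cKO replicate 2 was left out, and lost, with adjusted p up to 0.118, when any other single animal was. It was also lost with an effective length offset (adjusted p = 0.0524 by edgeR) and with no filter on low counts (adjusted p = 0.0634 by edgeR). Of the exon bases of Plk1, 156 (7.09%) are shared with Gm44985 on the opposite strand, and the strand setting of the counting was not given in the sources used here.

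Aurka, the Aurora kinase of centrosomes and spindle poles (ENSMUSG00000027496, chr2:172356190-172370535, − strand), was at 48.7, 54.7, 48.6, 39.1 and 48.0 CPM in WT and at 41.5, 49.4, 44.7, 30.8 and 32.4 CPM in cKO replicates 1 to 5. WT replicate 4 was below 3 of the cKO animals, so the groups overlapped widely. The log2 fold change was -0.27 (-0.55 to 0.02, adjusted p = 0.152 by edgeR), an interval that reaches from no difference to a fall larger than the estimate for any of the 10 genes. Aurkb, the Aurora kinase of the chromosomal passenger complex (ENSMUSG00000020897, chr11:69045647-69051664, + strand), was at 57.6, 69.0, 63.8, 61.0 and 61.3 CPM in WT and at 51.3, 53.7, 54.7, 38.4 and 39.9 CPM in cKO replicates 1 to 5. The highest cKO animal was below the lowest WT animal, and cKO replicates 4 and 5 were far below replicates 1 to 3. Mean levels were 62.5 ± 4.21 CPM for WT and 47.6 ± 7.87 CPM for cKO crypts (SD, n = 5). This was a log2 fold change of -0.39 (-0.62 to -0.16, adjusted p = 0.0167 by edgeR), the largest of the 10 on the log2 scale. The call was kept when any single animal was left out.

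Birc5, or survivin, the small subunit that brings AURKB to centromeres (ENSMUSG00000017716, chr11:117849251-117855743, + strand), was at 63.5, 83.6, 60.1, 60.0 and 63.9 CPM in WT and at 59.0, 70.1, 65.7, 45.3 and 52.8 CPM in cKO replicates 1 to 5. A single WT animal, replicate 2, was far above the others, and cKO replicates 2 and 3 exceeded the remaining 4 WT animals. The log2 fold change was -0.18 (-0.45 to 0.09, adjusted p = 0.309 by edgeR), so Birc5 did not pass the test. Without WT replicate 2 it was -0.08, and without cKO replicate 4 it was -0.10. Stretches of up to 169 bases of the longest annotated Birc5 transcript (3334 bases) are at least 95% identical to transcripts of 22 other genes. Each is at most 5.07% of that transcript and could be more of a shorter one, and reads there could be divided between genes.

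Bub1b encodes BUBR1, the part of the checkpoint inhibitor that binds CDC20 (ENSMUSG00000040084, chr2:118598211-118641591, + strand, 23 exon blocks). It was at 79.8, 79.0, 89.4, 77.3 and 74.2 CPM in WT and at 64.5, 76.3, 65.2, 51.7 and 55.8 CPM in cKO replicates 1 to 5. Only cKO replicate 2 reached into the WT range. The mean fell from 80.0 ± 5.72 to 62.7 ± 9.53 CPM (SD, n = 5), a log2 fold change of -0.35 (-0.56 to -0.14, adjusted p = 0.0197 by edgeR), and the call was lost in 1 of the 10 fits that left out 1 animal, that without cKO replicate 5 (adjusted p = 0.0558 by edgeR), and with an effective length offset (-0.30, adjusted p = 0.0614).

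Bub1, the kinase that recruits BUBR1 and passenger proteins to centromeres (ENSMUSG00000027379, chr2:127801122-127831865, − strand, 25 exon blocks), was at 35.5, 32.6, 36.0, 34.3 and 30.4 CPM in WT and at 30.6, 37.1, 33.6, 25.1 and 29.6 CPM in cKO replicates 1 to 5. The highest of all 10 animals was a cKO animal, replicate 2. The log2 fold change of -0.11 (-0.33 to 0.10, adjusted p = 0.409 by edgeR) was the smallest of the 10 genes. It was -0.04 without cKO replicate 4 and -0.19 without cKO replicate 2. Ttk, the kinase at the head of the checkpoint (ENSMUSG00000038379, chr9:83834689-83872389, + strand), was at 25.6, 23.9, 27.2, 23.5 and 21.7 CPM in WT and at 21.9, 23.9, 23.8, 18.6 and 20.7 CPM in cKO replicates 1 to 5. cKO replicates 1, 2 and 3 lay within the WT range, and the log2 fold change was -0.16 (-0.36 to 0.03, adjusted p = 0.187 by edgeR). Its counts were the lowest of the 10 genes, down to 547 in a library.

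Mad2l1, which encodes the MAD2 inhibitor (ENSMUSG00000029910, chr6:66535390-66547220, + strand), was at 70.7, 78.4, 67.6, 70.0 and 78.3 CPM in WT and at 62.1, 75.9, 72.4, 50.5 and 56.4 CPM in cKO replicates 1 to 5. The WT animals were close together, cKO replicates 2 and 3 lay among them, and cKO replicates 1, 4 and 5 lay below. The log2 fold change was -0.20 (-0.43 to 0.03, adjusted p = 0.169 by edgeR). Over 454 bases, 6.01% of its longest annotated transcript (7557 bases), it is 95.4% identical to the processed pseudogene Gm42430. Part of its count thus depends on how reads were divided, and the share would be larger in a shorter transcript that holds this stretch. Cdc20, the target of the checkpoint and activator of the anaphase-promoting complex (ENSMUSG00000006398, chr4:118432901-118437352, − strand), was at 83.2, 93.0, 84.1, 78.8 and 73.5 CPM in WT and at 75.2, 75.6, 74.6, 50.4 and 59.4 CPM in cKO replicates 1 to 5. cKO replicates 1, 2 and 3 lay close together just above WT replicate 5, and replicates 4 and 5 lay far below. The log2 fold change of -0.30 (-0.55 to -0.05) had an unadjusted p of 0.0206 and an adjusted p of 0.0651 by edgeR, so Cdc20 did not pass. It shares 53 exon bases (2.84%) with Elovl1 on the opposite strand.

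Mki67 (ENSMUSG00000031004, chr7:135689784-135716361, − strand) was at 439, 363, 411, 387 and 335 CPM in WT and at 339.9, 414, 336, 301 and 303 CPM in cKO replicates 1 to 5. WT replicate 5 lay below 3 cKO animals, and cKO replicate 2 was exceeded by WT replicate 1 alone. The log2 fold change was -0.19 (-0.41 to 0.03, adjusted p = 0.172 by edgeR), and Mki67 passed the test in 1 of the 10 fits that left out 1 animal, that without cKO replicate 2 (adjusted p = 0.0465 by edgeR).

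**Figure D2:**
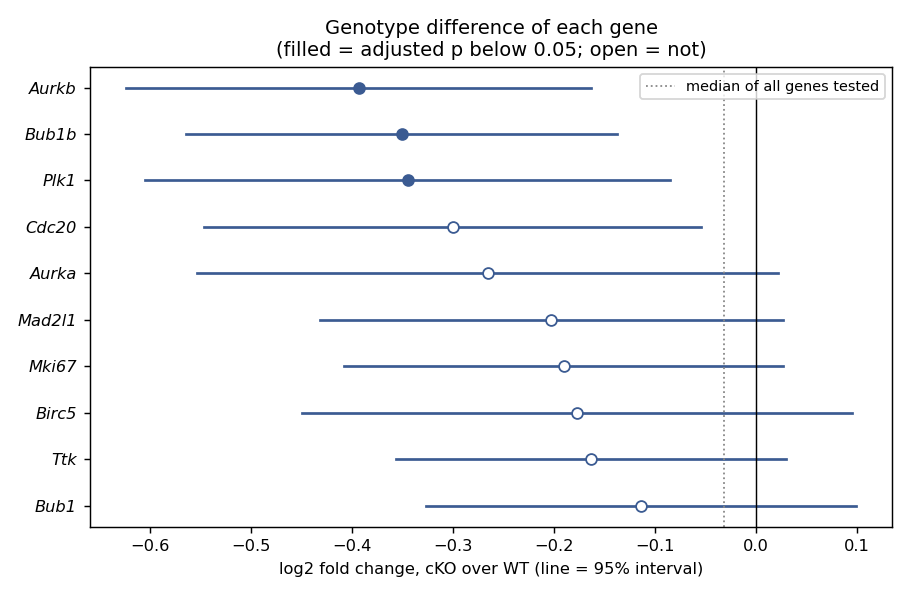
log2 fold change of cKO over WT for the 10 genes, ordered by size, with 95% intervals from edgeR and a dotted line at the median of all genes tested (-0.03). Every point lies below 0, the intervals of Aurkb, Bub1b, Plk1 and Cdc20 do not reach 0, and Cdc20 (adjusted p = 0.0651) is drawn open with the genes that did not pass.

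Levels can be compared between genes only per length, for which the deposited TPM values were used, which divide a gene's share of the library by its length. Over all 10 animals the mean TPM was 88.8 for Birc5, 56.6 for Cdc20, 48.1 for Mad2l1, 46.0 for Mki67, 40.2 for Aurkb, 39.9 for Plk1, 31.2 for Aurka, 27.1 for Bub1b, 12.7 for Bub1 and 10.6 for Ttk. Mki67, which had the most counts because its transcript is long, was thus in the middle of the order. Birc5 exceeded Cdc20 in all 10 animals, and so did Cdc20 exceed Mad2l1, Plk1 exceed Aurka, Aurka exceed Bub1b, Bub1b exceed Bub1 and Bub1 exceed Ttk. Mad2l1 exceeded Mki67 in 7 animals, Mki67 exceeded Aurkb in 8 and Aurkb exceeded Plk1 in 5, so that these neighbours did not differ beyond their spread. On this scale the summed TPM of the 10 genes was 387 to 482 in WT and 300 to 405 in cKO animals. The sum was lowest in cKO replicates 4 (300.4) and 5 (303.7), and a single cKO animal, replicate 2, exceeded the lowest WT animal. Tested on log2(TPM + 1) with limma, 6 of the 10 genes were lower, those that passed in CPM and also Aurka, Mad2l1 and Cdc20, against 18.8% of all genes, and 2 of the 10, Aurkb and Mad2l1, had no overlap, against 12.5%. TPM values carry no correction for library composition, and on this scale the median over all genes was -0.10 and that of the 10 genes -0.34.

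The variation over the 10 animals was described by the sum of squares of log2 CPM. It was divided into the part between genotypes and the part between animals of a genotype. The part between animals was larger than the part between genotypes in 8 of the 10 genes, and in 70.1% of all genes tested. The share between genotypes was 59.6% for Aurkb and 58.6% for Bub1b, the 2 exceptions, and 45.5% for Plk1. It was 41.8% for Cdc20, between 29.1% and 30.8% for Aurka, Mad2l1, Ttk and Mki67, 16.9% for Birc5 and 14.7% for Bub1. The median of 30.2% lay close to the 29.4% of all genes tested. The part between animals adds up the deviations of all animals from their genotype mean, while the part between genotypes rests on a single difference. A larger part between animals therefore does not show that animals differed more than genotypes, and Plk1, at 45.5%, passed the test. The division also depended on how libraries were scaled. The part between animals was the larger in 4 of the 10 genes on log2(TPM + 1) (Bub1, Ttk, Birc5 and Mki67), against 70% of all genes. With CPM on unadjusted library sizes it was the larger in 3 of the 10 (Aurka, Bub1 and Birc5), against 63% of all genes. Expressed in SDs pooled within genotypes, the genotypes differed by 2.17 for Aurkb, 2.13 for Bub1b, 1.64 for Plk1 and 0.744 for Bub1. Counting error was small beside this spread: the genes had 547 to 12613 counts per library, which gives a coefficient of variation of 0.890% to 4.28% from counting, against 6.73% to 20.05% between animals of a genotype.

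**Figure D3:**
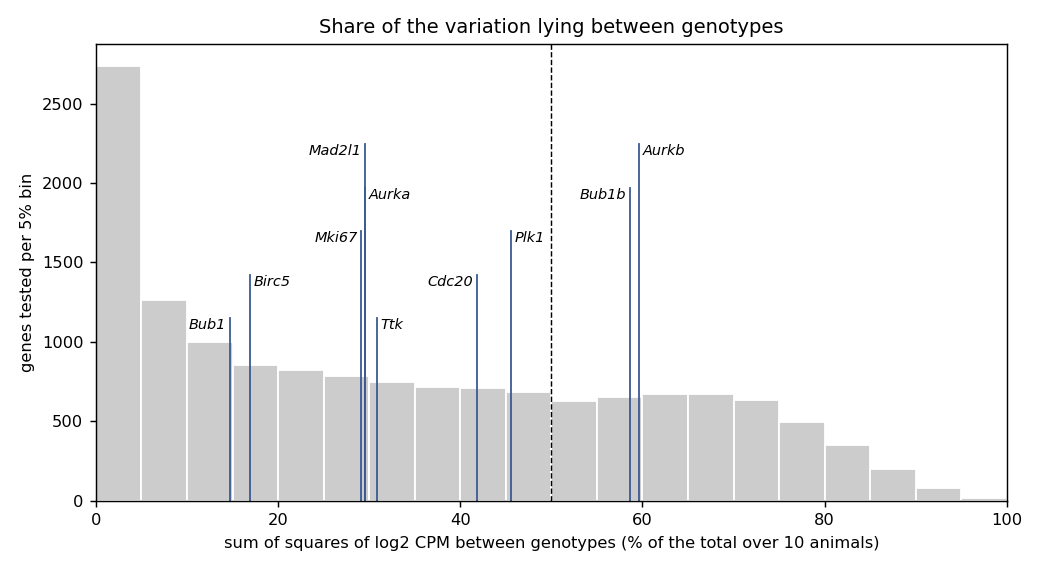
Percent of the sum of squares of log2 CPM that lies between genotypes (x axis, bins of 5%) for all 14719 genes tested (grey bars, number of genes), with blue lines at the 10 genes and a dashed line at 50%. Aurkb and Bub1b lie to the right of 50%, and the other 8 genes to the left, spread over the range of the other genes.

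The spread was not equal in the genotypes. All 10 genes had a larger SD of log2 CPM in cKO than in WT animals, which held for 30.9% of all genes. The median SD of the 10 genes was 0.12 in WT and 0.25 in cKO animals, while over all genes it was 0.21 in WT and 0.14 in cKO. The difference was clearest for Mad2l1 (0.10 and 0.25) and Aurkb (0.10 and 0.25), and least for Ttk (0.12 and 0.15). The ends of the wider cKO range were mostly the same animals. In CPM, replicate 4 was the lowest cKO animal for all 10 genes (28.3% of all genes), and replicate 2 the highest for 9 of them (18.8% of all genes), the exception being Aurkb. Replicates 4 and 5 were the 2 lowest cKO animals for all 10 (16.9% of all genes) and the 2 lowest of all 10 animals for all 10 (8.02% of all genes). On the TPM scale replicate 4 was the lowest cKO animal for 6 of the 10 genes and replicate 5 for Aurka, Aurkb, Bub1b and Mki67, and replicates 4 and 5 were the 2 lowest of all animals for 9 of the 10, with Bub1 as the exception. Averaged over the 10 genes, cKO replicates 4 and 5 were 0.43 and 0.29 below the mean of all animals on the log2 scale, cKO replicate 1 was 0.07 below it, and cKO replicates 3 and 2 were 0.01 and 0.12 above it. WT animals ranged from 0.04 (replicate 5) to 0.23 (replicate 2) above it. These genes rise and fall together in the cell cycle, so they are not 10 independent observations of the order of animals.

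**Figure D4:**
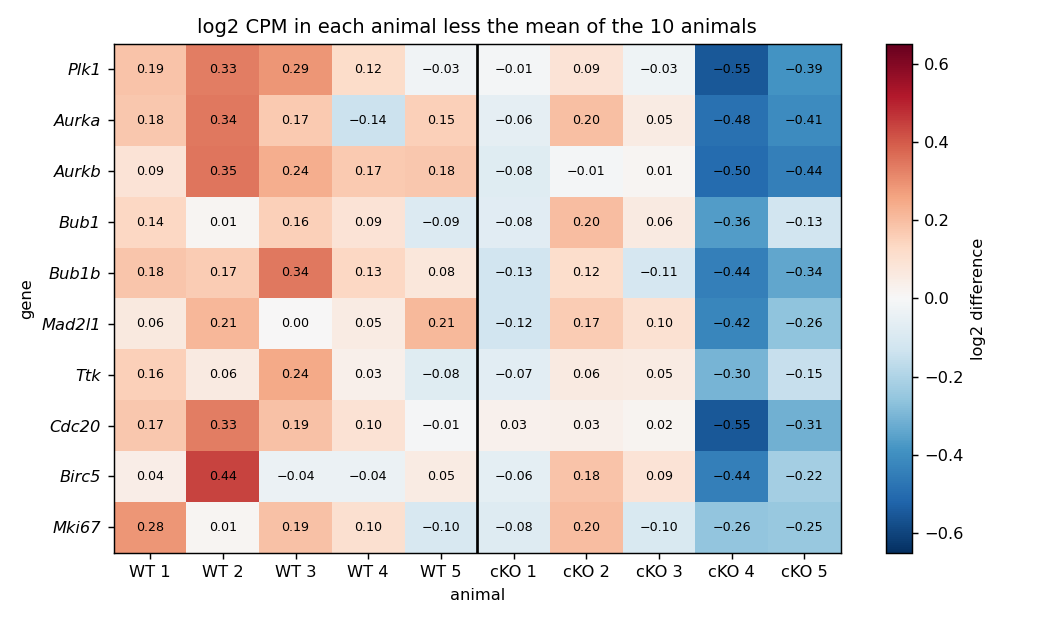
log2 CPM of each gene (rows) in each animal (columns, WT left of the line and cKO right of it) less the mean of the 10 animals, with red above and blue below that mean. The columns of cKO replicates 4 and 5 are blue in every row (-0.13 to -0.55), while cKO replicate 2 is above the mean in all rows but that of Aurkb (-0.01).

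cKO replicates 4 and 5, which share the main part of their identifiers, therefore stood apart from the other cKO animals, and the comparison was repeated without them, a choice made after their values had been seen. Since they were the lowest of all animals for all 10 genes in CPM, leaving them out had to raise every log2 fold change. The direction of that shift was thus fixed in advance, and only its size is described. The log2 fold changes became -0.23 for Aurkb, -0.21 for Bub1b, -0.17 for Plk1, -0.13 for Cdc20, -0.09 for Mki67, -0.08 for Aurka, -0.07 for Ttk, -0.05 for Mad2l1, -0.03 for Birc5 and 0.01 for Bub1, with a median of -0.08. None of the 10 passed the test (0 of 10, with 2 at an unadjusted p under 0.05, and 5.17% of all genes called lower), and the adjusted p by edgeR was 0.0824 for Aurkb and 0.125 for Bub1b. Without cKO replicates 1 and 2, which also share most of their identifiers, the median was -0.36 and 3 genes passed, again Aurkb, Bub1b and Plk1, against 4.65% of all genes. Leaving out animals also removes power, since without replicates 4 and 5 the genes called among all tested were 1980 in place of 4167. Without WT replicates 3 and 4, the WT animals with the lowest villus marker sums, 0 of the 10 passed as well, with 4 at an unadjusted p under 0.05 and 4.45% of all genes called lower, and the median was -0.29, farther from 0 than with all animals. cKO replicates 4 and 5 had the highest villus marker sums of all animals, 11336 and 11365 CPM against 6064 to 8567 CPM in the other cKO animals. They also had the highest cKO sums of immune markers, 117 and 111 CPM against 50.03 to 80.5 CPM, and replicate 4 had the highest sum of stromal markers, 134 CPM. Their sums of crypt base stem cell markers lay at opposite ends of the cKO group. That of replicate 4 was the highest, 5375 CPM, and that of replicate 5 the lowest, 3526 CPM, against 3828 to 4625 CPM in the other cKO animals. The part of these cells in the levels of the mitotic genes was not tested. The levels of Arid3a that remained in these animals, 0.883 and 1.17 CPM, were likewise the highest of the cKO group, and their part was not tested.

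Ratios of related members within a library, which do not depend on how libraries are scaled, were compared for 4 pairs by a two-sided exact permutation of the animals, which has 252 assignments and a smallest possible p of 0.00794. The log2 ratio of Bub1 to Bub1b was -1.16, -1.26, -1.30, -1.16 and -1.27 in WT and -1.06, -1.03, -0.95, -1.03 and -0.90 in cKO replicates 1 to 5. In CPM, every cKO animal was above every WT animal, including cKO replicates 4 and 5, whose levels of both genes were lowest on that scale. The mean was -1.23 ± 0.07 in WT and -0.99 ± 0.07 in cKO (SD, n = 5), a difference of 0.24 (exact permutation p = 0.00794, adjusted over the 4 ratios 0.0318). TPM is also divided by the effective length of the gene in each library. From TPM the difference was 0.20 and did not reach the threshold (exact permutation p = 0.0714), and the groups overlapped. The ratio of Aurka to Aurkb was higher by 0.13 in cKO animals (exact permutation p = 0.127, adjusted 0.18), with 1 WT animal, replicate 4 (-0.64), far below all others. Without that animal this difference was 0.064 (exact permutation p = 0.262), and without WT replicate 1 it was 0.16 (exact permutation p = 0.00794). The ratios of Mad2l1 to Cdc20 and of Plk1 to Mki67 differed by 0.10 and -0.16 (exact permutation p = 0.286 and 0.135), and both overlapped between genotypes. Leaving out WT replicate 3 moved the former to 0.063, leaving out WT replicate 5 moved it to 0.16, and leaving out WT replicate 2 moved the latter to -0.10.

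Centred within each genotype, the 10 genes varied together from animal to animal: over 45 pairs of genes the correlation across the 10 animals had a median of 0.80 and ranged from 0.38 to 0.98. These correlations share library, scaling and genotype means, and rest in part on cKO replicates 4 and 5. Plk1 followed the mean of the other 9 most closely (0.96), ahead of Cdc20 (0.93) and Bub1b (0.92), and Mki67 least (0.69). Among all other genes tested, those whose centred levels were most like the mean of the 10 were Racgap1 (0.98), which encodes a subunit of the centralspindlin complex, the kinetochore gene Nuf2 (0.98), the cyclins Ccna2 (0.97) and Ccnb1 (0.97), the kinase gene Melk (0.96), the cohesin acetyltransferase gene Esco2 (0.96), the centrosomal kinase gene Nek2 (0.96) and the kinesin gene Kif22 (0.96). None of these 8 passed the test between genotypes (log2 fold changes of -0.26 for Melk to -0.10 for Nuf2).

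Other genes of mitosis were taken from 7 lists with 96 genes, all of them tested. Of these, 23 were lower in cKO crypts and 0 higher, against the 12.7% of all genes called lower, and 87 had a log2 fold change below 0, with a median of -0.16. The count called was 11 to 27 when 1 animal was left out, lowest without cKO replicate 5, and 4 without cKO replicates 4 and 5, when 5.17% of all genes were called lower. cKO replicates 4 and 5 were the 2 lowest cKO animals for 69 of the 96. Of 13 other mitotic kinases, 3 fell (23.1%): Pkmyt1, an inhibitory kinase of CDK1 (log2 fold change -0.73), Haspin, whose mark on histone H3 helps to place AURKB at centromeres (-0.47), and Cdk1 itself (-0.38). Of 10 other checkpoint proteins, 6 fell, and the 4 with the lowest adjusted p were Mad1l1, the partner of MAD2 at kinetochores (-0.31), Bub3, the partner of BUB1 and BUBR1 (-0.25), Zwint (-0.22) and Zw10 (-0.19). In the chromosomal passenger complex, Incenp (-0.45) and Cdca8 (-0.34), the partners of AURKB and survivin, both fell, which with Aurkb made 3 of the 4 subunits, and the 2 shugoshin genes of that list did not pass.

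Of 17 genes of the anaphase-promoting complex and its regulators, 2 fell (11.8%, near the 12.7% of all genes), the subunit Cdc23 (-0.27) and the inhibitor Fbxo5 (-0.22). Of 19 kinetochore genes, 6 fell (31.6%), and the 4 with the lowest adjusted p were Cenpn (-0.46), Cenpm (-0.46), Pmf1 (-0.32) and Mis12 (-0.33). The 22 genes of spindle assembly and cytokinesis were all below 0, as were 54.1% of all genes, and 2 passed (9.09%, below the share of all genes), Tacc3, which binds spindle microtubules as a target of AURKA (-0.37), and Kif23, the motor of centralspindlin (-0.27). Of 11 cyclins, CDC25 phosphatases and G2/M transcription factors, 2 fell (18.2%), Mybl2 (-0.57) and Foxm1 (-0.28), the factors that act through MuvB. The cyclins of the list did not pass, with log2 fold changes of -0.15 for Ccna2, -0.13 for Ccnb1 and -0.02 for Ccnb2.

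**Figure D5:**
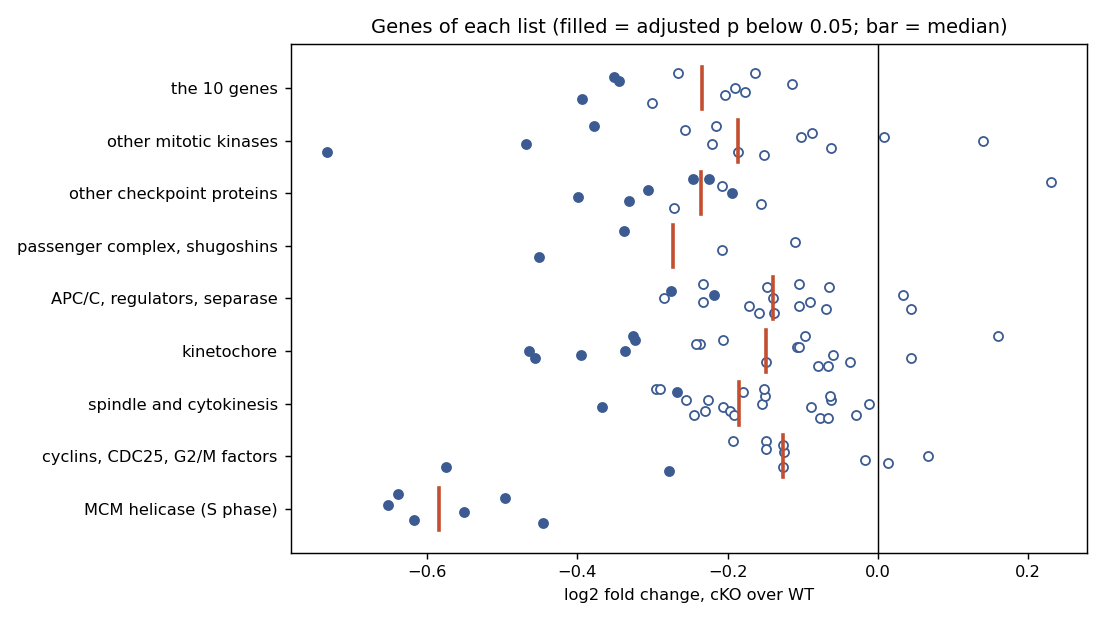
log2 fold change of cKO over WT (x axis) for every gene of the 10 described here, of the 7 other mitotic lists and of the MCM helicase, 1 point per gene, filled where the adjusted p of edgeR was below 0.05, with the list's median as a red bar. Most points of the mitotic lists lie between 0 and -0.4, and the 6 MCM genes lie from -0.45 to -0.65.

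The MCM helicase, which is loaded and fired in G1 and S phase, is given for comparison. Mcm2 to Mcm7 all fell, with log2 fold changes of -0.64, -0.62, -0.55, -0.65, -0.50 and -0.45 (adjusted p from 0.000848 to 0.00249 by edgeR), and none of the 6 overlapped between genotypes. The share of the sum of squares between genotypes had a median of 79.9% in these 6 genes and 30.2% in the 10 mitotic genes. Summed MCM levels were 994 to 1332 CPM in WT and 709 to 824 CPM in cKO animals. cKO replicate 4, the lowest cKO animal for all 10 mitotic genes in CPM and for 6 of them in TPM, had an MCM sum of 799 CPM, above those of replicates 1 (716), 2 (778) and 5 (709), and was the lowest cKO animal for 0 of the 6 genes. The difference between the MCM genes and the mitotic genes was not tested.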

How the data were processed

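Libraries of polyadenylated RNA came from jejunal crypts, from which villi had been scraped. The authors aligned reads with STAR and quantified genes with RSEM in nf-core/rnaseq against an Ensembl annotation of GRCm38. The deposited files give, per library, the expected count, which can be a fraction since RSEM divides reads that match several genes, the TPM, the FPKM (not used here) and the effective length of each gene, with no filter. The expected counts are not normalized between libraries. The deposited TPM values sum to the same total in every library. The strand setting is not given in the sources used here.

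Expected counts were rounded and fitted in R 4.3.3 with edgeR 4.0.16 (TMM, filterByExpr with minimum count 10 and minimum total 15, robust glmQLFit and glmQLFTest, genotype only), with Benjamini-Hochberg adjustment over 14719 genes and a threshold of 0.05. At totals of 27050500 to 31053600 counts per library, counting error was at most 4.28% for every value of the 10 genes and covers counting only. CPM used TMM sizes; log2 CPM had a prior count of 2 and ratios a pseudocount of 0.5 CPM. Copies were sought with BLAST 2.17.0 among GENCODE transcripts of GRCm38, and gene positions are from the same annotation. In simulated data made from these libraries, 71 of 97 genes changed by 1 on the log2 scale, 39 of 99 changed by 0.5 and 7 of 14327 unchanged genes were called.

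The 10 genes and all lists were chosen with earlier results of these data known. Named genes were Arid3a, the 10 genes, per list those past the threshold, or the 4 with the lowest adjusted p where more than 4 passed, the 8 genes most like the mean of the 10, Mcm2 to Mcm7, and the genes of the checks for overlap and copies; cyclins were named after their values were seen. The alternatives were RLE factors, unadjusted library sizes, DESeq2 1.42.0, other filters, unrounded counts, an effective length offset, limma 3.58.1 with voom or on log2 TPM, a replicate block and leaving out animals.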

Additional observations from a re-analysis of the deposited data

Results flagged for a closer look

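In 28 sets of 5 animals checked, 3 held a value whose distance to its nearest neighbour was large beside the range of the set, and chance alone flags about 1 in 20 sets. Birc5 in WT replicate 2 was at 83.6 CPM, far above the other 4 WT animals. The log2 ratio of Aurka to Aurkb was -0.12 in cKO replicate 2, above the other cKO animals. The log2 ratio of Mad2l1 to Cdc20 was -0.28 in cKO replicate 1, below the other cKO animals.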

How the results depend on the processing

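The log2 fold changes of the 10 genes kept their direction under all 24 alternatives except that of Bub1, which was 0.0058 without cKO replicates 4 and 5. The median of the 10 stayed below 0 (-0.31 to -0.17 when 1 animal was left out). In the main fit, 3 of the 10 genes and 23 of the 96 other mitotic genes were called, with 12.7% of all genes called lower. Unadjusted library sizes gave 8 and 53 (27.4% of all genes), with 3 genes without overlap and 3 that varied more between animals. Varied more here means only that the larger part of the sum of squares lay between animals of a genotype. With unadjusted sizes the median over all genes was -0.16, and the 10 genes lay 0.20 below it, as with TMM. Limma on log2(TPM + 1) gave 6 and 41 (18.8%), with 2 genes without overlap and 4 that varied more between animals, and log2(TPM + 0.1) gave 6 and 41 (18.6%). No filter gave 15 of the 96 (5.18% of 27960 genes), and an effective length offset left 1 of the 10, Aurkb (11.4%). Leaving out each animal (7.59% to 14.1% of all genes called lower) gave 1 (without cKO replicate 5) to 4 (without cKO replicate 2) of the 10 and 11 to 27 of the 96 called, the latter 15 without WT replicate 3, 13 without WT replicate 4, 15 without cKO replicate 1, 12 without cKO replicate 4 and 11 without cKO replicate 5. Leaving out each animal also gave 1 to 3 genes without overlap (3 without cKO replicate 2, 2 without WT replicate 5). The share of all genes without overlap was not counted with unadjusted library sizes or with animals left out. Fewer animals make overlap less likely for any gene, so the counts without overlap in those settings have no background. With 1 animal left out, the difference of the Aurka to Aurkb ratio was 0.064 to 0.16, lowest without WT replicate 4. It was past the threshold without WT replicate 1 only. With 1 animal left out, the other ratios moved to between 0.063 and 0.16 (Mad2l1 to Cdc20) and between -0.21 and -0.10 (Plk1 to Mki67). Without WT replicates 3 and 4, Aurka to Aurkb differed by 0.043 and Mad2l1 to Cdc20 by 0.053. Without cKO replicates 4 and 5, Plk1 to Mki67 differed by -0.073. Without cKO replicates 4 and 5, 0 of the 10 and 4 of the 96 passed by edgeR (5.17%, 2 of the 10 at an unadjusted p under 0.05); without WT replicates 3 and 4, 0 and 8 (4.45%, 4 at an unadjusted p under 0.05); and without cKO replicates 1 and 2, 14 of the 96 (4.65%), with 3 genes without overlap and 4 that varied more between animals. These leavings-out of pairs were chosen after seeing the data. Leaving out cKO replicates 4 and 5, the lowest animals for all 10 genes in CPM, had to raise the log2 fold changes of those genes. The Bub1 to Bub1b difference was 0.20 in TPM (exact permutation p = 0.0714). Replicate numbers did not pair the animals, since deviations of same-numbered animals correlated at -0.20 to 0.10; with the replicate block 5 of the 10 were called (8.07% of all genes) and the Bub1 to Bub1b difference of 0.24 had an exact permutation p of 0.0625, the smallest that 5 pairs allow. DESeq2, RLE factors, unrounded counts, a stricter filter and limma-voom each called 3 of the 10. In that order they called 7.77% (of 27937 genes), 12.4%, 12.7%, 13.8% and 12% of all genes lower. The DESeq2 share counts many genes that the filter of the main fit removed. DESeq2 called 2172 genes lower, against 1869 of 14719 in the main fit.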
